A study of Mus musculus with 18 samples.

Results

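Repeat peptide stimulated CD8+ T cells were compared with single peptide stimulated CD8+ T cells when both carried ibrutinib, to describe which exhaustion-associated expression changes were still present under the drug. The members were chosen by title, peptide schedule and drug as 9 of the 18 libraries of the series, namely 5 repeat peptide and 4 single peptide libraries. All cells were purified from OT-I mice, whose transgenic T cell receptor recognises the ovalbumin peptide OVA(257-264), and the labels give the strain as wild-type. Repeat peptide cells received 10 ng/ml peptide daily up to day 5 in medium with IL-15 and IL-7. Single peptide cells received the same dose once and were washed at 48 hours, and all cultures were split on day 4. Per the paper's methods, peptide stayed in the repeat cultures from day 5 to day 8, while single peptide cells were rested. Peptide was thus present at harvest in the repeat arm only, so that ongoing stimulation and exhaustion cannot be told apart. Ibrutinib (1 µM) was given from day 5 for 3 days, and live cells were lysed on day 8. The other 9 libraries (4 repeat peptide and 5 single peptide) carried DMSO, the solvent, in place of ibrutinib, and were used only to show where the drug-treated comparison differed. No library is shared between the ibrutinib comparison and the DMSO comparison. Each group is a culture of purified cells stimulated in vitro with peptide and cytokines, without tumour cells, infection or antigen-presenting tissue.

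The genotype entry of the labels was read here as marking an experiment, which the labels do not state, and libraries with the same entry were given the same letter (A to F). Experiments A to D each have 1 library of every group, E has only a repeat peptide library with ibrutinib, and F only a single peptide library with DMSO. The entries of B to E name a *Btk* knockout although the strain entry of the same libraries is wild-type, and *Btk* cannot settle this, since it had between 0 and 11 counts in each of the 9 ibrutinib libraries. The labels do not say which mice the libraries came from, so p-values measure the spread between these libraries. *Xist* had 87.03 to 197.4 TPM in the ibrutinib libraries of A and C and at most 0.02 TPM in those of B, D and E, and the Y-linked *Ddx3y* had 0 TPM in A and C and 25.13 to 40.09 TPM in the others, so that both arms hold cells of both sexes and of more than 1 mouse.

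T cell exhaustion is a differentiation state that CD8+ T cells enter under prolonged antigen receptor stimulation. Exhausted cells keep several inhibitory receptors such as PD-1 at the surface, express the transcription factor TOX and the NR4A factors, and lose TCF-1 and other factors of stem-like and memory cells together with receptors for lymph node homing. Ibrutinib is a covalent kinase inhibitor that was designed against BTK of B cells and also binds TXK and other kinases that carry a cysteine at the same place of their active site. TXK acts directly downstream of the T cell receptor.

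The 9 ibrutinib libraries held 23449518 to 51995372 assigned reads. The values below are normalized counts, that is, expected counts scaled to a common effective library size. Markers of CD8+ T cells summed to 3179.13 to 4038.26 TPM, the authors' length-scaled level, in the repeat peptide libraries and to 3733.33 to 4559.63 TPM in the single peptide libraries. Markers of other cells were lower in both arms: the summed TPM was 5.38 to 16.6 against 2.73 to 12.54 for CD4 T cells, 1.14 to 4.12 against 3.89 to 5.9 for B cells, 0.49 to 9.7 against 0 to 4.7 for myeloid cells, 6.8 to 41.11 against 11.22 to 15.81 for NK cells, and 0.14 to 6.27 against 0.23 to 2.7 for red cells and platelets. *Cd4* was at or below 0.17 TPM, *Cd79a* at or below 0.07 TPM and *Hbb-bs* at 0 in all 9, while *Zbtb7b* of the CD4 T cell list had 5.21 to 15.79 TPM in repeat against 1.74 to 3.79 TPM in single libraries, *Cd79b* of the B cell list reached 5.85 TPM and the platelet gene *Pf4* 4.34 TPM. Of the myeloid list, *S100a8* (3.88 TPM) and *S100a9* (2.24 TPM) were above 0 in repeat library E only, where *Fcer1a* (1.16 TPM) was also highest. In bulk RNA, fewer cells of a kind and less RNA per cell cannot be told apart.

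On the first principal component of the 18 libraries, which held 75.3% of the variance of the 500 most variable genes, the ibrutinib arms stood apart. Repeat peptide libraries A to E scored -20.4, -22.11, -41.84, -39.34 and -22.09, and single peptide libraries A to D scored 48.76, 44.84, 38.42 and 43.92. The means (-29.16 ± 10.5, SD, n = 5, against 43.98 ± 4.26, SD, n = 4) differed by -73.14, and the exact permutation test gave p = 0.00794, the smallest value that its splits allow. The component was built from the most variable genes of the same libraries, so a separation along it was favoured in advance and the p-value is only descriptive. This test split the libraries freely and did not use the pairing of experiments A to D. A paired exact test on those 4 experiments cannot reach p under 0.05. With DMSO the repeat peptide libraries had a mean of -57.25 ± 6.68 (SD, n = 4) and the single peptide libraries of 39.76 ± 2.89 (SD, n = 5).

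With ibrutinib in both arms, 4703 of 12255 tested genes differed between repeat and single peptide cells, 2295 higher (18.7% of tested genes) and 2408 lower (19.6%). A gene was called at an adjusted p under 0.05 in the edgeR quasi-likelihood test, with a mean of at least 50 normalized counts and an absolute log2 fold change above 0.2. This main fit did not use the pairing of libraries by experiment. In 2204 genes (18%) every repeat library lay above every single library with ibrutinib, and in 2004 genes (16.4%) every repeat library lay below. With DMSO, 2799 genes were higher (22.8%) and 2966 lower (24.2%). Of these 5765 genes, 4080 (70.8%) were called in the same direction with ibrutinib and are termed persisting, 1669 (29%) were no longer called and are termed lost, and 16 were called in the opposite direction. With the experiment as a block, 5069 of 6564 genes (77.2%) persisted, 1451 (22.1%) were lost and 44 were called in the opposite direction, among them all 16. Rises persisted in 2018 of 2799 genes (72.1%) and falls in 2062 of 2966 (69.5%). Among the 1994 genes that changed by more than 1 on the log2 scale with DMSO, 1754 (88%) persisted. A further 607 genes were called with ibrutinib and not with DMSO, 547 of them with the same sign in DMSO. Since the DMSO call selects them, lost genes are enriched in changes near the threshold, and 5593 of the 5765 genes (97%) kept their sign.

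The size of the change was compared with DMSO by a test of the difference of both effects, which called 154 genes (1.26% of tested genes). In 137 of them (25 with a DMSO effect above 0 and 112 below, called or not) the change was smaller with ibrutinib or turned direction. In 17 it was larger. The DMSO effect enters both the difference and its naming as reduced or enlarged, so these 2 counts are not independent of it. A fit that blocked on experiment called 5950 genes with ibrutinib and the difference for 679 genes (5.54%), 489 reduced and 190 enlarged, including 153 of the 154. Without repeat DMSO library C the difference was called for 84 genes and without single ibrutinib library D for 89.

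**Figure D1:**
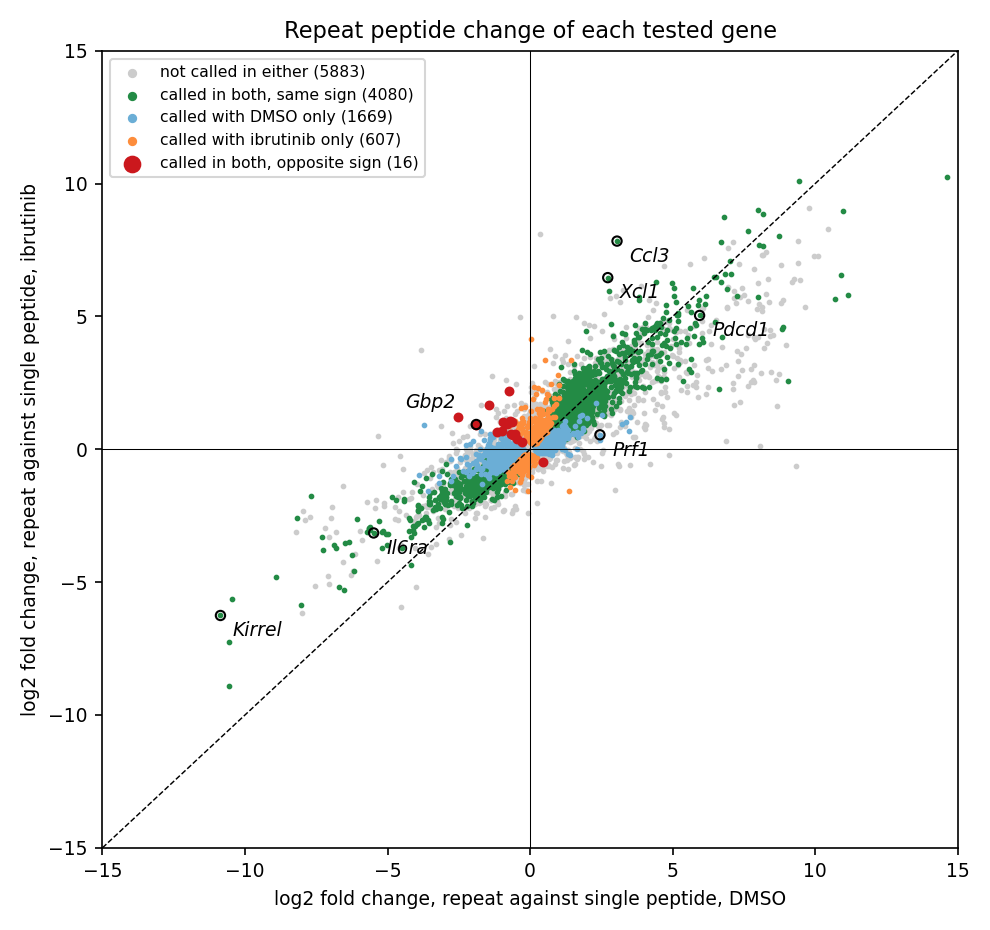
Log2 fold change of repeat against single peptide cells for each of the 12255 tested genes, with DMSO on the horizontal axis and with ibrutinib on the vertical axis; colours give the calls, the dashed line marks equal change, and circled genes are named. Most called genes lie between the dashed line and 0 or near the line, *Ccl3* and *Xcl1* lie above it, and *Gbp2* lies on the opposite side of 0.

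As a measure that uses each experiment on its own, the retained share was computed for experiments A to D. It is the slope of an experiment's repeat minus single log2 differences with ibrutinib on the mean DMSO differences of the other experiments, as a percentage of the same slope for its own DMSO libraries. Over all tested genes the share was 70.4% in A, 71.5% in B, 84.3% in C and 82.9% in D (median 77.2%), so that it was below 100% in 4 of 4 experiments. For genes higher in repeat cells in the DMSO libraries of the other experiments it was 85%, 83.6%, 91.5% and 97.9% (median 88.3%). For genes lower there it was 53.3%, 56.1%, 80.6% and 75.2% (median 65.7%), which was under the share of the rises in each experiment. Differences between 4 experiments cannot reach p under 0.05 in an exact test, so none is given.

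**Figure D2:**
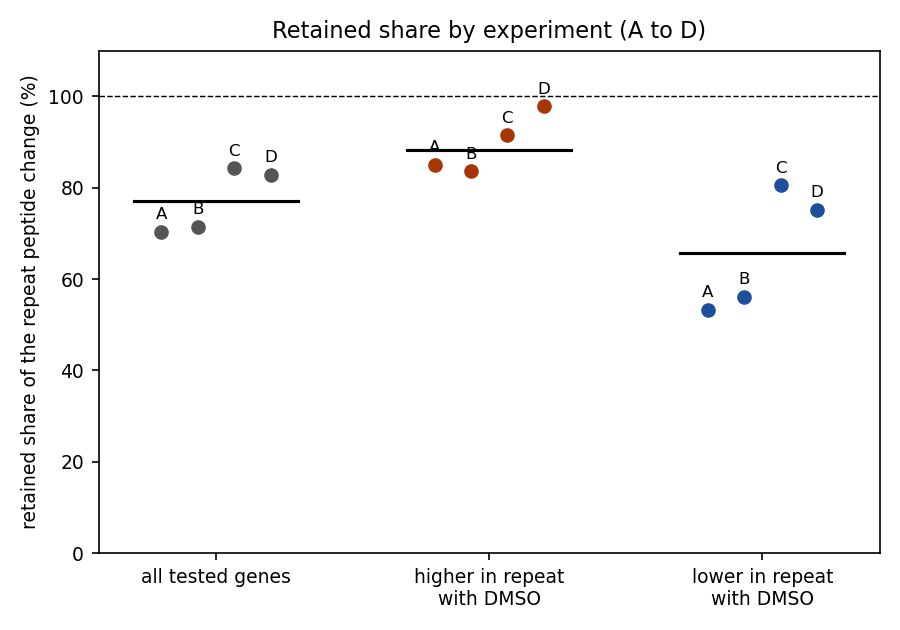
Retained share of the repeat peptide change with ibrutinib, in percent of the same experiment's DMSO libraries, for all tested genes and for genes higher or lower in repeat cells; each point is 1 experiment (A to D), bars are medians and the dashed line marks 100%. In each experiment the point for falling genes lies below the point for rising genes.

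Inhibitory receptors dampen T cell activation after binding ligands on other cells. The list counted as receptors here also holds the ectonucleotidases *Entpd1* and *Nt5e*, which are enzymes. With ibrutinib, 10 of 15 tested receptors were higher in repeat peptide cells, 2 were lower and 3 were not called, with a median log2 fold change of 1.58 (-0.0178 over all tested genes). As a scale for this and each later list, 18.7% of all tested genes were higher and 19.6% lower with ibrutinib, and 1.26% had a called difference. With DMSO 11 were higher and 4 lower, with a median of 1.42. All 12 receptors called with ibrutinib were persisting, the difference of the effects was called for 0 in edgeR and 1 in DESeq2 (6 at an unadjusted p under 0.05), and without repeat library E 10 were higher and 3 lower. With the experiment as a block the difference was called for 2 genes of the list, *Lair1* (1.22, adjusted p = 0.0297) and *Nt5e* (0.63, adjusted p = 0.0239).

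*Pdcd1*, which encodes PD-1 and lies on chromosome 1 from 94038305 to 94052553 (GRCm38), had 3574, 4657, 4161, 5649 and 4090 normalized counts in repeat libraries A to E and 116, 174, 151 and 96.5 in single libraries A to D. Every repeat library was above every single library, and the log2 fold change was 5.04 ± 0.21, adjusted p = 1.71e-11. With DMSO it was 5.95, and the difference of -0.91, adjusted p = 0.099 was not called by edgeR but was by DESeq2 (-0.89, adjusted p = 0.0376), while all 5 repeat libraries with ibrutinib (mean 4427) were below all 4 with DMSO (8082, 10990, 8440 and 12290). *Lag3*, a receptor for MHC class II, had 4216, 3690, 5679, 4632 and 3280 counts against 141, 224, 223 and 122. Its groups did not overlap either, with a log2 fold change of 4.60 ± 0.25, adjusted p = 3.11e-10 with ibrutinib and 4.34 with DMSO. *Tigit*, a receptor for nectins, had 1184, 1529, 1931, 1419 and 1271 counts in repeat cells and 44.6, 125.5, 62.1 and 23.6 in single cells. The log2 fold change of *Tigit* was 4.51 ± 0.34, adjusted p = 1.5e-08 (3.92 with DMSO). Within repeat peptide cells, the paper reported lower *Pdcd1*, *Lag3*, *Tigit*, *Tox* and *Irf4* with ibrutinib than without. A ratio of repeat to single cells does not show such a change of level.

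The promoter of *Pdcd1* is shown because it is the gene by which exhausted cells are most often recognised and is a target of NFAT. These are the 250 bases before its start in RefSeq (GRCm38.p6, chr1:94052554-94052803, minus strand, printed along the gene), with capitals for matches to GGAAA, the core bound by NFAT, here read on the opposite strand:
Pdcd1 promoter: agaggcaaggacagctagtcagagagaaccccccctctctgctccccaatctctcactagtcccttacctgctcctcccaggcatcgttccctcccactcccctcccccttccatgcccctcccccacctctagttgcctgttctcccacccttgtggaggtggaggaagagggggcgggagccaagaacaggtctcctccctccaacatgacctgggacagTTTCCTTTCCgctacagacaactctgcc
In all, 13 of the 15 tested receptor genes had such a window. GGAAA was found on either strand in 8 of the 13 genes (58.8% of all 27025 genes with a window), the AP-1 motif TGANTCA in 2 (7.82%), the NR4A monomer motif AAAGGTCA in 0 (1.55%) and the KLF core CACCC in 8 (54.5%). A match is only a description of these letters.

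*Havcr2*, which encodes TIM-3, was low but separated, with 14.6, 245, 34.7, 71.4 and 96.4 counts in repeat cells and 0, 1.87, 1.86 and 6.16 in single cells (log2 fold change 5.18 ± 0.94, adjusted p = 0.00025). *Cd160* (2.05 ± 0.20, adjusted p = 3.52e-07), *Cd244a*, the gene of 2B4 (3.71 ± 0.63, adjusted p = 0.000121), *Cd200r1* (3.37 ± 0.54, adjusted p = 7.07e-05) and the ectonucleotidase *Entpd1* (1.58 ± 0.27, adjusted p = 0.000137) were higher in every repeat library than in any single library. *Cd5* rose by 0.63 ± 0.10 (adjusted p = 8.08e-05). *Cd96* was higher by 0.29 ± 0.11 (adjusted p = 0.0368), a call that was lost in 6 of the 18 fits that left out 1 library (adjusted p up to 0.0737), all of them ibrutinib libraries. The receptors that were lower were *Vsir*, the gene of VISTA (-0.91 ± 0.12, adjusted p = 7.13e-06), and *Lair1*, a collagen receptor (-2.16 ± 0.27, adjusted p = 4.92e-06).

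The 3 genes of this list called with DMSO but not with ibrutinib were the receptors *Ctla4* and *Btla* and the ectonucleotidase *Nt5e*. *Ctla4*, which competes with CD28 for its ligands, had 3411, 3935, 4899, 4493 and 4255 counts in repeat cells and 2605, 4030, 3936 and 2913 in single cells with ibrutinib. The groups overlapped, and the log2 fold change was 0.32 ± 0.19, adjusted p = 0.179 against 1.11 with DMSO. For *Btla* it was -0.08 ± 0.19, adjusted p = 0.765 against -0.76, and for *Nt5e*, the gene of CD73, -0.46 ± 0.22, adjusted p = 0.102 against -1.25. *Nt5e* was called lower with the experiment as a block (log2 fold change -0.65, adjusted p = 0.000125) and without repeat library E (adjusted p = 0.0348). The difference of the effects was not called for *Ctla4* (-0.80, adjusted p = 0.171, and 0.032 without single DMSO library B) or *Btla* (0.69, adjusted p = 0.285).

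Of the 6 tested ligands of such receptors, 4 were higher and 2 lower with ibrutinib (median 1.19 with ibrutinib and 0.505 with DMSO). *Pdcd1lg2*, which encodes the PD-1 ligand PD-L2, had 121, 176, 225, 181 and 236 counts against 4.74, 5.62, 3.71 and 8.22 (log2 fold change 5.05 ± 0.43, adjusted p = 6.6e-08). *Cd200* (2.10 ± 0.22, adjusted p = 7.27e-07) and *Tnfsf14*, the gene of LIGHT (1.80 ± 0.18, adjusted p = 4.1e-07), rose as well, and the rise of *Cd200* was smaller than with DMSO when the experiment was a block (-1.06, adjusted p = 0.0136). *Tnfrsf14*, a ligand of BTLA, had a log2 fold change of -0.78 ± 0.13, adjusted p = 0.000128 with ibrutinib and of -1.57 with DMSO. Its difference (0.79, adjusted p = 0.0458) was called, but in only 6 of the 18 fits without 1 library and not with an offset for the effective length (0.60, adjusted p = 0.418). *Lgals9*, the gene of the TIM-3 ligand galectin-9, was called lower with ibrutinib (-0.33 ± 0.10, adjusted p = 0.0125) and not with DMSO, and the difference (-0.14, adjusted p = 0.812) was not called.

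*Cd274*, which encodes PD-L1, turned direction. It had 1059, 1230, 1007, 879 and 793 counts in repeat and 683, 689, 629.7 and 632 in single cells with ibrutinib, and 858, 642, 784 and 789 against 1443, 1144, 1209, 999.7 and 1242 with DMSO. Repeat peptide cells were thus above single peptide cells with ibrutinib (0.59 ± 0.13, adjusted p = 0.00127) and below them with DMSO (-0.65), with no overlap in either comparison. The difference was 1.25, adjusted p = 0.00133.

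Most transcription factors of exhausted and effector cells were higher in repeat cells. With ibrutinib, 14 of 20 tested factors were higher, 2 lower and 4 not called, and the median log2 fold change was 1.24 against 1.83 with DMSO. Of the factors called with DMSO, 15 persisted and 3 were lost, and without repeat library E 15 were higher and 2 lower. *Tox*, a chromatin-binding factor required for exhausted cells to form, had 952, 939.6, 1344, 861 and 982 counts in repeat cells and 138, 217, 236 and 139.7 in single cells. These groups did not overlap, and the log2 fold change was 2.47 ± 0.19, adjusted p = 1.91e-08 with ibrutinib and 2.58 with DMSO. The orphan receptors *Nr4a1* (3.59 ± 0.37, adjusted p = 5.35e-07), *Nr4a2* (4.57 ± 0.19, adjusted p = 1.71e-11) and *Nr4a3* (4.04 ± 0.27, adjusted p = 4.33e-09) rose together, with 3.52, 4.27 and 3.63 with DMSO. *Irf4*, which translates receptor signal strength, rose by 2.07 ± 0.20 (adjusted p = 3.06e-07), *Bhlhe40*, a factor of mitochondrial fitness, by 2.24 ± 0.32 (adjusted p = 2.28e-05), *Hif1a*, the hypoxia factor, by 1.32 ± 0.16 (adjusted p = 3.89e-06), *Zeb2* by 2.80 ± 0.33 (adjusted p = 2.5e-06) and *Prdm1*, the gene of BLIMP-1, by 1.71 ± 0.38 (adjusted p = 0.00138).

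*Batf3* had 43.7, 41.0, 125, 386 and 15.5 counts in repeat cells and 4.74, 0, 1.86 and 14.4 in single cells, with repeat library D the highest and E the lowest of its arm (log2 fold change 4.58 ± 0.92, adjusted p = 0.000624, 8.86 with DMSO). With the experiment as a block its rise was smaller than with DMSO (-4.48, adjusted p = 0.0073). *Rbpj*, the DNA-binding partner of Notch, rose by 1.17 ± 0.15 (adjusted p = 5.05e-06) with ibrutinib and by 2.10 with DMSO. This reduction was called (-0.94, adjusted p = 0.0233) and was lost in 6 of the 18 fits without 1 library (adjusted p up to 0.0811). *Tbx21*, the gene of T-bet, was called with ibrutinib (1.06 ± 0.21, adjusted p = 0.000559) and not with DMSO (0.40), and its difference was called only with the block (0.66, adjusted p = 0.02). *Id2*, which favours effector cells, rose by 1.11 ± 0.19 (adjusted p = 0.000146). *Nfatc1* was lost (0.24 ± 0.13, adjusted p = 0.124, against 0.60 with DMSO, difference -0.35, adjusted p = 0.466), although it was called with the block (log2 fold change 0.31, adjusted p = 0.00126) and without repeat library E (adjusted p = 0.0408).

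*Maf* (-2.27 ± 0.62, adjusted p = 0.0066), whose groups overlapped, and *Eomes* (-1.07 ± 0.42, adjusted p = 0.0469) were the factors that were lower. *Eomes*, the T-box factor of memory and NK cells, had 283, 1019, 176, 274 and 690.3 counts in repeat cells and 1154, 888, 1008 and 1045 in single cells. Repeat library B reached the range of the single libraries, and the call was kept in only 5 of the 18 fits without 1 library (adjusted p up to 0.114). The log2 fold change was -3.64 with DMSO and the difference 2.56, adjusted p = 0.0468, which was also kept in only 5 of the 18 fits and was not called with the block (adjusted p = 0.0812). The same libraries B and E of the repeat arm had the highest level of the NK cell marker *Klrb1c* (25.17 and 8.58 TPM, against 2.69 to 4.81 TPM in A, C and D), and the part of this in the *Eomes* values was not tested.

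Of 13 tested transcription factors of stem-like and memory cells, 8 were lower and 1 higher with ibrutinib, and all 9 were persisting (median -0.595 with ibrutinib and -0.679 with DMSO). *Tcf7*, which encodes TCF-1, had 13900, 6357, 9371, 7745 and 9508 counts in repeat cells and 30660, 25380, 25270 and 26250 in single cells. All repeat libraries were below all single libraries, with a log2 fold change of -1.52 ± 0.20, adjusted p = 8.66e-06 and of -2.16 with DMSO. Its difference was 0.64, adjusted p = 0.384, and it was called only with the block (0.69, adjusted p = 0.0421). *Lef1*, a partner of TCF-1, fell by 1.12 ± 0.13 (adjusted p = 2.92e-06), *Foxo1*, which maintains memory gene expression, by 1.20 ± 0.13 (adjusted p = 1.16e-06) and *Satb1*, a chromatin organiser, by 0.60 ± 0.11 (adjusted p = 0.000178). The difference of *Lef1* was called only with the block (0.55, adjusted p = 0.0413).

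*Klf2*, the factor that drives *S1pr1*, had 4780, 3433, 1988, 2485 and 3353 counts against 14220, 12130, 11070 and 11530 (log2 fold change -1.93 ± 0.23, adjusted p = 2.29e-06, -2.98 with DMSO), and DESeq2 called its difference (1.06, adjusted p = 0.0338). *Klf3* had a log2 fold change of -2.32 ± 0.26, adjusted p = 1.6e-06 with ibrutinib and of -3.93 with DMSO, and this reduction was called (1.61, adjusted p = 0.0399), though in only 5 of the 18 fits without 1 library. The gene that rose was *Zfp683*, which encodes HOBIT of tissue-resident cells, with 278, 336, 249.5, 162 and 179.7 counts against 16.1, 34.7, 37.1 and 15.4. Its log2 fold change was 3.21 ± 0.36, adjusted p = 1.55e-06 with ibrutinib and 1.56 with DMSO, a difference that was called with the block (1.64, adjusted p = 0.0177) and by DESeq2 (1.67, adjusted p = 0.0145).

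Most receptors for homing and memory were lower in repeat cells. With ibrutinib 9 of 15 were lower and 2 higher (median -0.629), and with DMSO 11 were lower and 2 higher (median -1.31). The difference of the effects was called as a reduction for 4, *Il6ra*, *S1pr1*, *Itgb7* and *Ly6c2*. *Il6ra*, the receptor for IL-6, had 991, 786, 449, 440.4 and 770.0 counts in repeat and 5614, 6936, 4994 and 6781 in single cells with ibrutinib, and the repeat libraries with DMSO had 79.1, 167, 133 and 84.3. The repeat libraries with ibrutinib thus lay between both, with log2 fold changes of -3.15 ± 0.25, adjusted p = 3.33e-08 and -5.49 and a difference of 2.34, adjusted p = 0.00192. *S1pr1*, which lets T cells leave lymph nodes, had 4165, 3615, 2377, 2171 and 3782 counts against 14470, 14120, 14710 and 15820, and 742, 1227, 669 and 436 in the repeat libraries with DMSO. Its log2 fold change was -2.20 ± 0.22, adjusted p = 5.11e-07 with ibrutinib and -3.83 with DMSO (difference 1.63, adjusted p = 0.011).

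*Itgb7*, an integrin for gut homing, had a log2 fold change of -0.80 ± 0.13, adjusted p = 9.32e-05 with ibrutinib and -1.84 with DMSO (difference 1.05, adjusted p = 0.00626). *Ly6c2*, an antigen of memory cells, was lower in repeat cells with DMSO (-1.71) and not called with ibrutinib (0.70 ± 0.29, adjusted p = 0.0575), where it had 9947, 10790, 8915, 8214 and 19190 counts against 4700, 7998, 6702 and 8719. Repeat library E was the highest, and the difference was 2.41, adjusted p = 0.00479. *Ly6c2* was called higher with ibrutinib, and so in the opposite direction, by DESeq2 (adjusted p = 0.0258), in the fit of only the ibrutinib libraries (adjusted p = 0.0446), with DESeq2 size factors (adjusted p = 0.049) and in 4 of the 18 fits without 1 library. *Ccr7*, the lymph node homing receptor, had a log2 fold change of -1.47 ± 0.20, adjusted p = 9.12e-06 with ibrutinib and -1.31 with DMSO. *Il18r1* rose (0.99 ± 0.20, adjusted p = 0.000551), and *Cxcr3*, a receptor for inflamed tissue, was lost (-0.46 ± 0.37, adjusted p = 0.336, against -1.89 with DMSO, difference 1.44, adjusted p = 0.254) while its repeat values spread from 1392 to 3889.

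**Figure D3:**
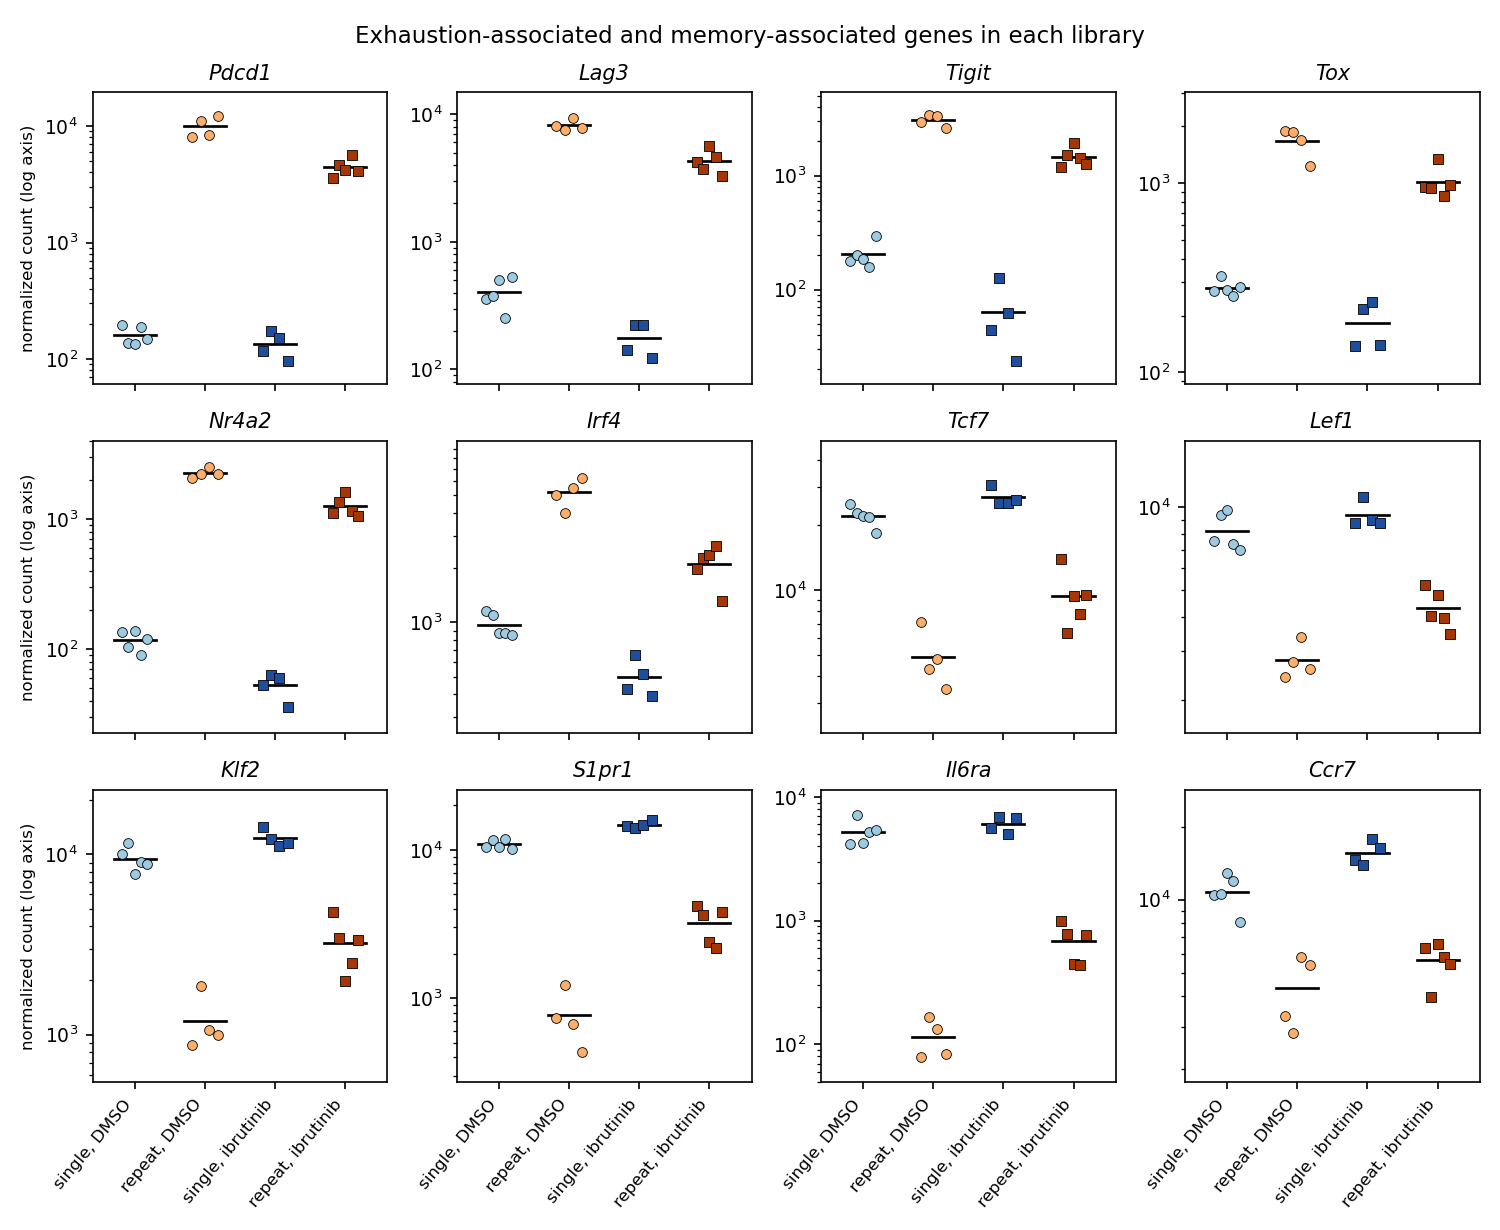
Normalized count (log axis) of 6 exhaustion-associated genes (*Pdcd1*, *Lag3*, *Tigit*, *Tox*, *Nr4a2*, *Irf4*) and 6 memory-associated genes (*Tcf7*, *Lef1*, *Klf2*, *S1pr1*, *Il6ra*, *Ccr7*) in single and repeat peptide libraries with DMSO (circles) or ibrutinib (squares); each point is 1 library and bars are means. In all 12 panels, whose genes were chosen, the ibrutinib repeat and single libraries do not overlap, as in 18% (repeat above) and 16.4% (repeat below) of all tested genes.

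Receptors for inflamed tissue were mixed, with 3 of 10 higher and 2 lower (18.7% and 19.6% over all tested genes). *Itgae*, which encodes CD103, had 855, 1497, 194, 316 and 657 counts in repeat cells and 6835, 7213, 3175 and 5263 in single cells (log2 fold change -3.00 ± 0.58, adjusted p = 0.000473, -5.65 with DMSO, difference with the block 2.54, adjusted p = 0.0159). *Ccr2* was called with ibrutinib and not with DMSO (difference 1.80, adjusted p = 0.213), with 2192, 4682, 1258, 1906 and 3381 against 512, 833, 648 and 881 counts (1.90 ± 0.46, adjusted p = 0.00265). *Cxcr6* was higher by 0.80 ± 0.26 (adjusted p = 0.0172), a call that was lost without single library B (adjusted p = 0.0575). *Ccr4* was called with DMSO (3.23) and not with ibrutinib (0.96 ± 0.63, adjusted p = 0.231), except with the block (log2 fold change 1.08, adjusted p = 0.00924, difference -2.24, adjusted p = 0.00863). In repeat libraries B and E, which had the most *Klrb1c*, *Ccr2* and *Cxcr6* were also highest, and the part of other cells in this was not tested.

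Most target genes of T cell receptor signalling were higher in repeat cells under the drug. Of 22 tested targets, 18 were higher and 1 lower with ibrutinib, and the same calls were made with DMSO (median 1.88 with ibrutinib and 1.9 with DMSO). These ratios do not give the level in either arm. The mean of *Dusp4* was 550.6 in repeat and 15.57 in single cells with ibrutinib, and 1533 and 43.09 with DMSO. That of *Spry2* was 1084 and 38.05 with ibrutinib, and 2132 and 58.26 with DMSO. Levels of the other targets were not compared between ibrutinib and DMSO here. The activation markers *Tnfrsf9*, the gene of 4-1BB (4.66 ± 0.40, adjusted p = 6.56e-08), and *Tnfrsf4*, the gene of OX40 (3.64 ± 0.40, adjusted p = 1.22e-06), rose together with *Egr3* (4.05 ± 0.31, adjusted p = 1.87e-08) and *Egr2* (3.28 ± 0.37, adjusted p = 1.82e-06), which are induced by calcium and NFAT, and the MAP kinase feedback inhibitors *Dusp4* (5.12 ± 0.64, adjusted p = 4.38e-06) and *Spry2* (4.82 ± 0.28, adjusted p = 7.52e-10). *Tnfrsf9* had 2579, 2605, 6421, 4714 and 5065 counts in repeat cells and 122, 138, 284 and 132 in single cells. *Egr2* had 486, 571, 741, 501 and 756 counts against 35.1, 58.1, 129.8 and 27.7. For each of these genes the lowest repeat library was above the highest single library. *Myc* was the target that was lower (-0.58 ± 0.11, adjusted p = 0.000419).

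The difference was called for 2 of the targets, both as a smaller rise. *Icos*, a costimulatory receptor, had 2249, 2239, 2759, 2534 and 2077 counts in repeat cells and 1677, 1338, 1379 and 1483 in single cells, and rose by 0.69 ± 0.13 (adjusted p = 0.000293) with ibrutinib and by 1.47 with DMSO. Its difference (-0.78, adjusted p = 0.0358) was called in only 5 of the 18 fits without 1 library. *Dusp5*, a nuclear ERK phosphatase, was higher by 0.50 ± 0.16 (adjusted p = 0.0179) with ibrutinib, a call that was lost without repeat library C or single library D (adjusted p up to 0.0553), and by 1.65 with DMSO (difference -1.15, adjusted p = 0.0126).

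Genes of the proximal receptor machinery moved less, and 10 of 17 were lower and 2 higher with ibrutinib (median -0.427, and -0.437 with DMSO). *Cd8b1*, the CD8 beta chain, had 9522, 8442, 9426, 8734 and 11740 counts in repeat cells and 28790, 24410, 29050 and 33220 in single cells (log2 fold change -1.59 ± 0.13, adjusted p = 4.65e-08, -1.54 with DMSO). *Grap2*, the adaptor GADS, fell by 1.09 ± 0.13 (adjusted p = 2.22e-06) (difference with the block 0.71, adjusted p = 0.00272), and the adaptor *Lcp2*, the gene of SLP-76, rose by 0.36 ± 0.08 (adjusted p = 0.0018). Among the 7 tested genes of kinases that ibrutinib is known to bind, 1 was higher and 2 lower (18.7% and 19.6% over all tested genes). *Txk* had a log2 fold change of -1.56 ± 0.24, adjusted p = 4.53e-05 with ibrutinib and -2.99 with DMSO, and its difference (1.43, adjusted p = 0.0464) was called in only 5 of the 18 fits without 1 library. *Tec* was lower (-0.98 ± 0.23, adjusted p = 0.00202) and *Jak3*, the kinase of the common gamma chain receptors, was higher (0.65 ± 0.13, adjusted p = 0.000756). *Lck* (-0.23 ± 0.11, adjusted p = 0.106) and *Fyn* (-0.10 ± 0.10, adjusted p = 0.461) were not called. *Lck* was called without repeat library E (adjusted p = 0.0217) and with the block (adjusted p = 0.00572).

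Brakes on receptor signalling were mixed, with 8 of 19 higher and 3 lower (median 0.21, and 0.106 with DMSO). Over all tested genes 18.7% were higher and 19.6% lower. *Cish*, a STAT5-induced inhibitor of receptor signalling, rose by 1.81 ± 0.19 (adjusted p = 7.21e-07), *Ubash3b*, a phosphatase that acts on ZAP-70, by 1.40 ± 0.21 (adjusted p = 3.91e-05) and *Ptpn6*, the phosphatase SHP-1, by 1.07 ± 0.10 (adjusted p = 3.07e-07). *Socs3*, an inhibitor of IL-6 family signalling, fell by 1.65 ± 0.25 (adjusted p = 4.32e-05) (difference with the block 0.83, adjusted p = 0.0369), and *Pag1*, which holds the kinase CSK at the membrane, fell by 1.40 ± 0.19 (adjusted p = 1.04e-05).

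Most cytokine and chemokine genes were higher in repeat cells with ibrutinib, and 3 of them rose more than with DMSO. Of 13 tested genes 10 were higher and 0 lower with ibrutinib (median 4.5, with 0 lower at an unadjusted p under 0.05 and in DESeq2, and 2 lower with the block), against 8 higher and 2 lower with DMSO (median 2.72). *Ccl3* and *Ccl4* on chromosome 11 (83647844 to 83649355 and 83662584 to 83664683) and *Xcl1* on chromosome 1 (164931644 to 164935527) encode chemokines that attract myeloid cells and dendritic cells. *Ccl3* had 281, 441, 256, 502 and 301 counts in repeat cells and 0.948, 0, 2.78 and 2.05 in single cells with ibrutinib. With DMSO it had 394, 555, 439 and 815 counts in repeat cells and 119, 56.3, 91.8, 40.7 and 25.6 in single cells. The single peptide libraries with ibrutinib were thus the lowest, at 6 counts in all, and the repeat to single ratio of summed counts was 266 (exact 95% counting interval 122 to 726, which covers counting error only).

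*Ccl4* had 294, 487, 363, 456 and 632 counts in repeat cells and 0.948, 10.3, 13.0 and 4.11 in single cells, with a log2 fold change of 5.94 ± 0.51, adjusted p = 6.78e-08 against 2.77 with DMSO. *Xcl1* had 2135, 3001, 4402, 4175 and 8976 against 14.2, 23.4, 113 and 54.4 counts, and 2431, 3572, 1661 and 2945 against 424, 177, 714, 444 and 248 with DMSO. In both genes the difference of the effects was called, at 3.16, adjusted p = 0.011 and 3.74, adjusted p = 0.0101, and for *Ccl3* at 4.79, adjusted p = 0.00192. That of *Xcl1* was lost without the filter on low counts (adjusted p = 0.0527). The mean of *Xcl1* in single peptide cells was 51.3 with ibrutinib and 401.5 with DMSO, and in repeat peptide cells 4538 and 2652.

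*Ifng*, which encodes interferon gamma, had 95.8, 162, 205, 273 and 361 counts in repeat cells and 1.90, 2.81, 13.9 and 13.4 in single cells. It was called higher (4.77 ± 0.67, adjusted p = 1.82e-05) with a change of 4.04 with DMSO. *Csf1* (6.30 ± 0.48, adjusted p = 1.91e-08) and *Tnfsf11*, the gene of RANKL (4.50 ± 0.24, adjusted p = 2.99e-10), persisted with 6.70 and 4.25 with DMSO. *Tnf* had 394, 412, 451, 556 and 428 against 179, 208, 174 and 128 counts and was called with ibrutinib (1.38 ± 0.21, adjusted p = 4.57e-05) and not with DMSO (0.30), with a difference that was called with the block (1.15, adjusted p = 0.0279) and by DESeq2 (adjusted p = 0.0155). *Lta* was called with ibrutinib (0.78 ± 0.24, adjusted p = 0.0141) and not with DMSO (difference 0.72, adjusted p = 0.423), but not without repeat library D (adjusted p = 0.052). *Ltb* (-0.40 ± 0.21, adjusted p = 0.128, -1.33 with DMSO) and *Ccl5* (-0.23 ± 0.40, adjusted p = 0.668, -1.18 with DMSO) were called lower with DMSO and not with ibrutinib, but with the block both were called lower with ibrutinib too (log2 fold change -0.62, adjusted p = 0.00196, and -0.66, adjusted p = 0.0207). *Ltb* was also called without repeat library E (adjusted p = 0.0108), and its difference was called with the block (0.77, adjusted p = 0.0367).

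Cytotoxic genes and NK receptors were higher for 9 of 18 and lower for 0 of 18 in edgeR (1 at an unadjusted p under 0.05 and 1 in DESeq2), with a median of 1.69 against 2.02 with DMSO. *Gzmb*, the main granzyme of killer cells, had 13530, 15930, 21950, 26880 and 19680 counts in repeat cells and 1236, 2445, 2459 and 1646 in single cells (3.33 ± 0.29, adjusted p = 6.93e-08, 3.04 with DMSO). *Gzmc* had 859.9, 2483, 2337, 4246 and 1267 counts against 5.69, 3.75, 5.56 and 15.4 (8.21 ± 0.58, adjusted p = 7.27e-09). The inhibitory NKG2A gene *Klrc1* (4.68 ± 0.37, adjusted p = 3.33e-08), its partner *Klrd1* (1.34 ± 0.24, adjusted p = 0.000193), the activating receptor *Klrk1*, which encodes NKG2D (2.60 ± 0.16, adjusted p = 1.22e-09), and *Fasl* (1.98 ± 0.36, adjusted p = 0.000238) rose in the same direction. Granzyme and *Klr* genes are close copies of each other, so that reads can be split between them.

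*Prf1*, which encodes perforin, was lost in the fit of all 18 libraries, while the fit of only the 9 ibrutinib libraries called it higher (0.58, adjusted p = 0.0288). With ibrutinib it had 569, 792, 1128, 806 and 956 counts in repeat cells and 539.5, 574, 510.0 and 708 in single cells, and with DMSO 1554, 1419, 3307 and 3152 against 355, 234, 324, 387 and 863. The groups overlapped with ibrutinib and not with DMSO, at log2 fold changes of 0.54 ± 0.32, adjusted p = 0.182 and 2.45. The difference was -1.91, adjusted p = 0.0419 and was called in only 4 of the 18 fits without 1 library. *Nkg7* was called with ibrutinib (0.32 ± 0.12, adjusted p = 0.0389) and not with DMSO (difference 0.32, adjusted p = 0.496), but not in 5 of the 18 fits without 1 library (adjusted p up to 0.0971).

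Among 17 tested cytokine receptors and STAT factors, 5 were higher and 2 lower (18.7% and 19.6% over all tested genes). *Il2rb*, the receptor chain for IL-2 and IL-15, rose by 0.92 ± 0.12 (adjusted p = 5.01e-06) (difference with the block -0.46, adjusted p = 0.0194). *Il12rb1* was called with ibrutinib and not with DMSO (0.65 ± 0.18, adjusted p = 0.00674, difference with the block 0.83, adjusted p = 0.0279), and *Il4ra* had a log2 fold change of -0.53 ± 0.11, adjusted p = 0.000796 against -1.49 with DMSO, a reduction that was called (0.96, adjusted p = 0.00324). Among 16 survival and death genes 8 were higher and 3 lower. The BCL-2 relatives *Bcl2a1b* (4.37 ± 0.40, adjusted p = 1.75e-07) and *Bcl2a1d* (6.07 ± 0.58, adjusted p = 2.53e-07), close copies whose reads may be shared, rose, and *Mcl1*, another survival factor, fell by 0.47 ± 0.10 (adjusted p = 0.0011). *Bcl2* was lower (-0.33 ± 0.12, adjusted p = 0.0357), a call that was lost in 10 of the 18 fits without 1 library (adjusted p up to 0.117).

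All 36 tested cell cycle genes were higher in repeat cells with ibrutinib, and all 36 were so with DMSO. The median log2 fold change was 2.4 with ibrutinib and 1.65 with DMSO, and the difference lay above 0 in all 36 (in 6445 of all 12255 tested genes). *Mki67*, the gene of the proliferation marker Ki-67, had 38150, 27790, 34900, 34520 and 16670 counts in repeat and 3219, 4185, 7638 and 4866 in single cells with ibrutinib. With DMSO it had 47180, 39960, 40940 and 42600 against 14590, 9858, 16940, 15540 and 7516, so that both arms were lower with ibrutinib on average. The log2 fold change was 2.61 ± 0.29, adjusted p = 1.21e-06 with ibrutinib and 1.73 with DMSO. Of the 36 differences 0 were called by edgeR without a block and 0 by DESeq2 (12 at an unadjusted p under 0.05), whereas 16 were called as larger with the block, among them *Mki67* (1.18, adjusted p = 0.0111) and *Cenpe*, a kinetochore motor (1.23, adjusted p = 0.00105). The 3 smallest changes of the list were those of *Mcm2* (1.06 ± 0.18, adjusted p = 0.000156), *Ccne1* (0.97 ± 0.14, adjusted p = 1.57e-05) and *Cdt1* (0.64 ± 0.13, adjusted p = 0.000727), and *Cenpe* had the largest (2.88 ± 0.26, adjusted p = 1.32e-07).

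Of 10 cell cycle inhibitors, 2 were higher and 4 lower (18.7% and 19.6% over all tested genes). *Cdkn1a*, the gene of p21, had 209.8, 340.1, 831, 1028 and 233 counts in repeat cells and 98.6, 78.7, 94.6 and 63.7 in single cells (2.66 ± 0.51, adjusted p = 0.000398, 4.77 with DMSO), so that repeat libraries C and D were the highest. *Cdkn1b*, the gene of p27, which marks resting T cells, fell by 0.87 ± 0.15 (adjusted p = 0.000109).

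Metabolic genes called with ibrutinib were mostly higher. Of 22 genes of glycolysis and hypoxia, 12 were higher and 1 lower with ibrutinib (median 0.632), against 18 higher and 1 lower with DMSO (median 1.05). Of these 19, 6 were lost, as were 29% of all genes called with DMSO. The difference of the effects was called for 0 of the 22 in edgeR, with the block and in DESeq2 (3 at an unadjusted p under 0.05). *Ldha*, which makes lactate, rose by 0.83 ± 0.24 (adjusted p = 0.00788), *Tpi1* by 1.47 ± 0.27 (adjusted p = 0.000323), *Gapdh* by 0.85 ± 0.17 (adjusted p = 0.000501), *Slc2a3*, a glucose transporter, by 0.76 ± 0.17 (adjusted p = 0.00184) and the lactate exporter *Slc16a3* by 2.36 ± 0.41 (adjusted p = 0.000146). *Pdk1*, which keeps pyruvate from the mitochondria, fell by 1.28 ± 0.12 (adjusted p = 1.99e-07). Of 23 genes of cholesterol synthesis, 17 were higher and 0 lower in edgeR, DESeq2 and at an unadjusted p under 0.05 (median 0.904, and 1.09 with DMSO). *Sqle*, the epoxidase that acts on squalene, had 1978, 1540, 2913, 3613 and 1028 counts in repeat cells and 602, 939.5, 850.4 and 791 in single cells. Its groups did not overlap, repeat library E was the lowest of its group, and it rose by 1.48 ± 0.31 (adjusted p = 0.000957). *Acat2* was called with ibrutinib (0.61 ± 0.13, adjusted p = 0.000797) and not with DMSO (difference 0.47, adjusted p = 0.255).

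The 16 genes that were called in opposite directions (44 with the block) included guanylate-binding proteins and other genes known to be induced by interferons. *Usp33* was the gene that was higher with DMSO and lower with ibrutinib (0.46 and -0.48 ± 0.13, adjusted p = 0.00507), with a difference that was not called with an offset for the effective length (-0.60, adjusted p = 0.236). The other 15 were lower with DMSO and higher with ibrutinib, among them *Gbp2*, *Gbp3*, *Gbp5*, *Gbp6*, *Gbp10*, *Iigp1*, *Cd274*, *Wars*, *Fgl2*, *Slamf7*, *Sp140*, *Prx*, *Gm49339* and *Panx1*. These genes were picked by both contrasts, so their values are a description.

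*Gbp2*, a guanylate-binding protein that attacks the vacuoles of intracellular pathogens, lies on chromosome 3 from 142620602 to 142638008 (GRCm38). It had 8906, 7256, 8997, 11780 and 8519 counts in repeat cells and 5864, 3425, 5172 and 4589 in single cells with ibrutinib, and 2786, 2445, 3417 and 3463 against 13460, 7480, 16160, 11870 and 7068 with DMSO. The groups did not overlap in either comparison, and the order was opposite, with log2 fold changes of 0.93 ± 0.22, adjusted p = 0.00249 and -1.89 and a difference of 2.82, adjusted p = 0.000186. *Gbp10* on chromosome 5 had 745, 836, 649, 1036 and 826 against 360.3, 231, 214 and 224 counts with ibrutinib and 754, 237, 818 and 693 against 2638, 904, 1713, 1800 and 1444 with DMSO (difference 3.11, adjusted p = 0.000967). *Gbp3* (0.64 ± 0.17, adjusted p = 0.00558, against -1.15 with DMSO) and *Gbp6* (1.03 ± 0.18, adjusted p = 0.000173, against -0.94) did likewise, as did *Gbp5* (0.56 ± 0.18, adjusted p = 0.0174, against -0.59), whose difference (1.15, adjusted p = 0.0277) was lost in 5 of the 18 fits without 1 library (adjusted p up to 0.0615). *Gbp2*, *Gbp3* and *Gbp5* lie close together on chromosome 3, and *Gbp6* and *Gbp10* on chromosome 5. The *Gbp* genes are near copies, so that reads may be split between them.

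The promoters of *Gbp2* and *Gbp5* are shown because both genes turned direction and hold motifs of interferon signalling near their starts. Capitals mark matches to the interferon-stimulated response element (ISRE), searched as GAAA, a pair of any bases and GAAA, in *Gbp2* (chr3:142620413-142620662, plus strand), and to the ISRE and TTCNNNGAA, the gamma-activated site (GAS) bound by STAT factors, in *Gbp5* (chr3:142496684-142496933, plus strand), both from RefSeq (GRCm38.p6):
Gbp2 promoter: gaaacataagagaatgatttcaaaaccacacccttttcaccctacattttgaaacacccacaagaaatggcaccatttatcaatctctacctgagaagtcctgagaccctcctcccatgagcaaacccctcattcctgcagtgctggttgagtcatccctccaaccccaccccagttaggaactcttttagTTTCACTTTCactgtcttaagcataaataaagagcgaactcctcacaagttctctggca
Gbp5 promoter: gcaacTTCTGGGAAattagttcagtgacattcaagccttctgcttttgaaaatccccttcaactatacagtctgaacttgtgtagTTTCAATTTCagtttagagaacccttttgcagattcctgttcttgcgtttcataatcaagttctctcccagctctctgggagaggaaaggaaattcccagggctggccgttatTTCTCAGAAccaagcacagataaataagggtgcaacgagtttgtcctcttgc
Both motifs were searched on both strands and were chosen after the values of these genes had been seen. Among the 9 of the 15 genes with a window, the ISRE was found in 3 (3.46% of all genes with a window) and the GAS in 2 (8.13%), while GGAAA was found in 8 (58.8%), the AP-1 motif in 3 (7.82%), the KLF core in 6 (54.5%) and the NR4A monomer motif in 0 (1.55%). The 3 genes with the ISRE were *Gbp2*, *Gbp3* and *Gbp5*, near copies that lie together on chromosome 3, so these matches are not independent of each other. The GAS was found in *Gbp5* and *Fgl2*.

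*Iigp1*, an immunity-related GTPase on chromosome 18, had 1911, 2213, 1945, 3632 and 1704 counts against 1328, 763, 944 and 949 with ibrutinib and 489.7, 362, 974 and 1053 against 4882, 3720, 4535, 4956 and 2470 with DMSO (difference 3.71, adjusted p = 0.000186). *Fgl2*, a secreted fibrinogen-like protein with suppressive activity, had 1876, 2765, 1363, 2428 and 1959 against 347, 575, 408 and 464 with ibrutinib and 694, 589, 615 and 730.0 against 1048, 1010, 864, 1182 and 1408 with DMSO. In *Iigp1* and *Fgl2* the groups did not overlap in either comparison, and the log2 fold change of *Fgl2* was 2.21 ± 0.20, adjusted p = 1.18e-07 with ibrutinib and -0.75 with DMSO (difference 2.96, adjusted p = 1.89e-05). *Panx1* was the gene of the 16 without a called difference (0.53, adjusted p = 0.0594, and 0.54, adjusted p = 0.0216 with the block), and its rise with ibrutinib was lost without single library A or D (adjusted p up to 0.0674).

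Among the others were *Wars* (0.59 ± 0.12, adjusted p = 0.000998, against -0.52 with DMSO), a tRNA synthetase, *Slamf7* (1.03 ± 0.25, adjusted p = 0.00332, against -0.65), a self-binding receptor of lymphocytes, *Sp140* (0.37 ± 0.10, adjusted p = 0.00758, against -0.46), a nuclear body protein, *Prx* (0.96 ± 0.23, adjusted p = 0.00251, against -0.82) and *Gm49339* (1.08 ± 0.27, adjusted p = 0.00357, against -0.69). The differences of *Slamf7* and *Gm49339* were each lost in 3 of the 18 fits without 1 library (adjusted p up to 0.0631).

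Interferon stimulated genes as a list of 25, 4 of them higher and 2 lower with ibrutinib, had a median log2 fold change of 0.245 against -0.602 with DMSO. Over all tested genes 18.7% were higher and 19.6% lower with ibrutinib. With DMSO 11 had been lower and 3 higher, and 8 of these were lost, 2 reversed and 4 persisting. The difference lay above 0 in 21 of 25 (in 6445 of all 12255 tested genes). It was called for 6 of the 25 (1.26% over all tested genes), all as reductions. *Igtp* (0.37 ± 0.16, adjusted p = 0.0628, against -1.61 with DMSO, difference 1.98, adjusted p = 0.000186) was called higher with the block (adjusted p = 0.00282) and in 5 of the 18 fits without 1 library. *Irgm1* (0.13 ± 0.16, adjusted p = 0.54, against -1.11) and *Zbp1*, a sensor of Z-form nucleic acid (0.23 ± 0.17, adjusted p = 0.299, against -0.99), were lost, with differences of 1.25, adjusted p = 0.00944 and 1.22, adjusted p = 0.0143, the latter not called with an offset for the effective length (adjusted p = 0.142). *Gbp4* (1.56, adjusted p = 0.00562) and *Gbp7* (1.15, adjusted p = 0.00944) also had called differences, and *Gbp7* was called higher with ibrutinib only with the block (log2 fold change 0.29, adjusted p = 0.0465). *Gm4951*, a neighbour of the same GTPase family as *Iigp1*, was lost (0.92 ± 0.54, adjusted p = 0.175, against -3.72 with DMSO, difference 4.64, adjusted p = 0.00503) but called higher with the block (log2 fold change 1.01, adjusted p = 0.0329). *Mx1*, an antiviral GTPase, and *Ifih1*, the RNA sensor MDA5, stayed higher in both comparisons (1.79 ± 0.28, adjusted p = 6.04e-05 and 0.85 ± 0.25, adjusted p = 0.00993 with ibrutinib, 1.54 and 0.71 with DMSO).

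**Figure D4:**
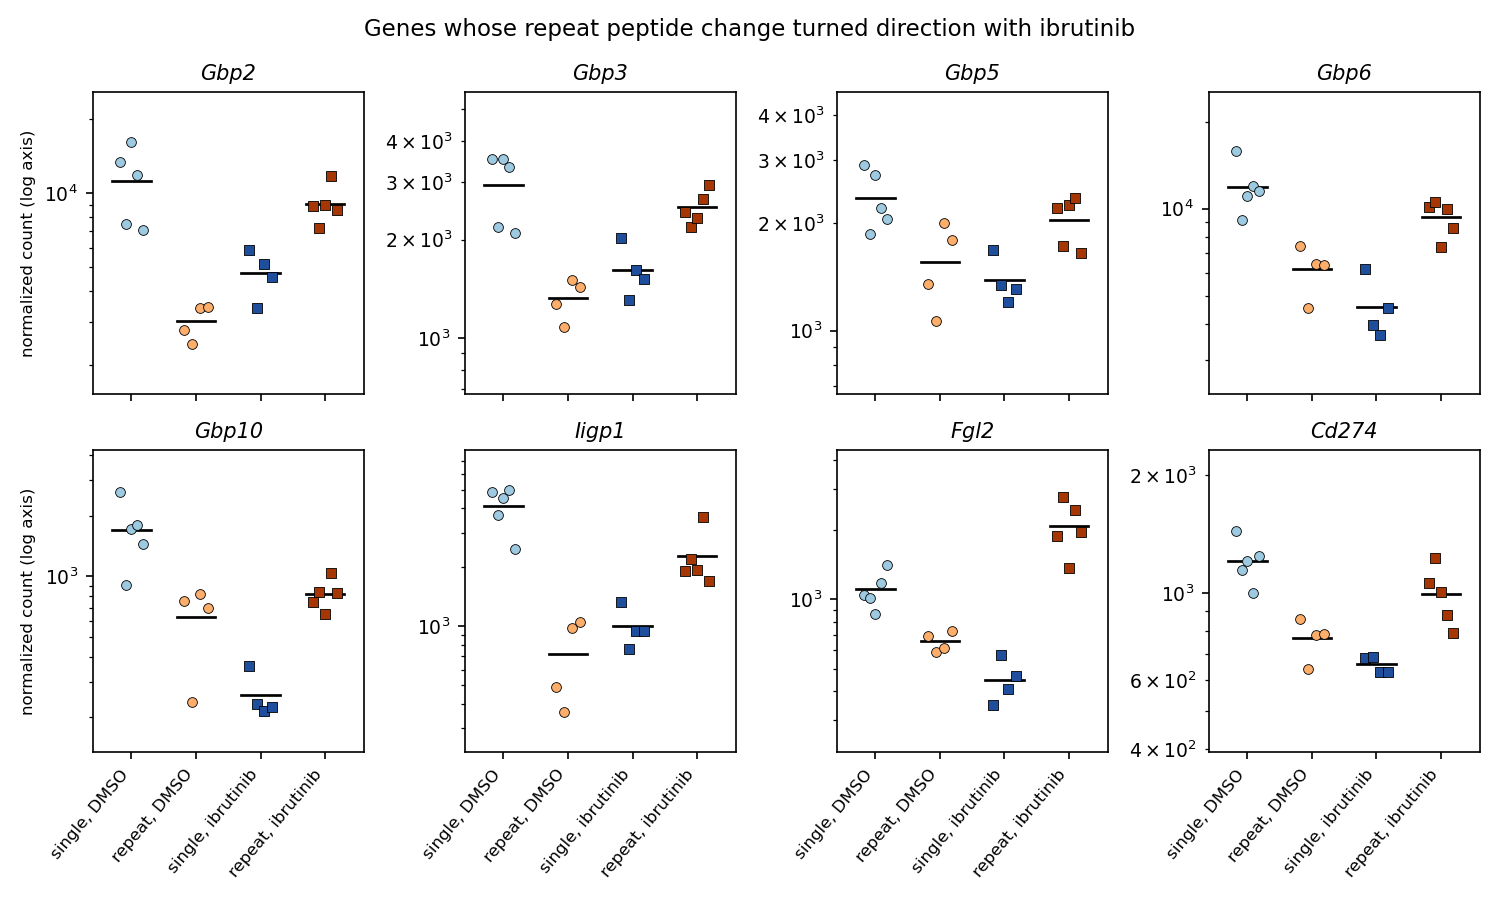
Normalized count (log axis) in single and repeat peptide libraries with DMSO (circles) or ibrutinib (squares) for 8 of the genes whose repeat peptide change turned direction (*Gbp2*, *Gbp3*, *Gbp5*, *Gbp6*, *Gbp10*, *Iigp1*, *Fgl2*, *Cd274*); each point is 1 library and bars are means. *Gbp2* was lower in repeat than in single libraries with DMSO and higher with ibrutinib, without overlap in either.

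Of 5 tested MHC class II genes 2 were higher and 1 lower in both comparisons. *H2-Ab1*, a class II beta chain, had 149, 88.7, 433, 501 and 171 counts in repeat and 7.59, 5.62, 13.9 and 2.05 in single cells (5.17 ± 0.64, adjusted p = 4.14e-06), and *Cd74*, the invariant chain, rose by 3.68 ± 0.92 (adjusted p = 0.00351). *H2-DMa*, which loads peptide on class II, was lower (-1.05 ± 0.23, adjusted p = 0.00141, -1.63 with DMSO, difference with the block 0.73, adjusted p = 0.0145). *Cd79a* was at or below 0.07 TPM in the same 9 libraries, *Cd79b* at or below 5.85 TPM and *Lyz2* at or below 4.45 TPM, while *Cd14* had 0.26 to 1 TPM in repeat and at most 0.03 TPM in single libraries, and the part of other cells in these values was not tested. Of 10 tested heat shock genes 2 were higher and 1 lower (18.7% and 19.6% over all tested genes). With the block 8 were called, as were 5950 of all 12255 tested genes. *Hspa1a* (3.03 ± 1.10, adjusted p = 0.0336) was lost in 6 of the 18 fits without 1 library (adjusted p up to 0.161), and *Hspa1b* (1.22 ± 0.66, adjusted p = 0.141) was called only with the block (log2 fold change 1.24, adjusted p = 0.0417). These neighbouring genes are near identical copies.

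By size alone, the largest rises among genes with a mean of at least 10 normalized counts in both arms and the same sign in every experiment were those of *Igfbp7*, *Nrgn*, *Xcl1*, *Rgs16*, *Bcl2a1d*, *Dusp4*, *Spin4*, *Pdcd1*, *Nek6* and *Spry2*. *Igfbp7*, a secreted binding protein of growth factors, had 2243, 1926, 3961, 3634 and 2398 counts in repeat and 8.53, 8.43, 34.3 and 3.08 in single cells (7.67 ± 0.49, adjusted p = 2.8e-09, 8.16 with DMSO). *Nrgn*, a calmodulin-binding protein, had 2554, 2545, 5853, 3636 and 3523 against 37.9, 32.8, 51.9 and 27.7 (6.58 ± 0.33, adjusted p = 1.27e-10). *Rgs16*, a brake on chemokine receptors, rose by 6.28 ± 0.41 (adjusted p = 3.73e-09), with a larger rise than with DMSO when the experiment was a block (1.95, adjusted p = 0.044) and in DESeq2 (adjusted p = 0.00419), and *Spin4* and *Nek6* rose by 5.06 ± 0.47 (adjusted p = 1.99e-07) and 4.96 ± 0.40 (adjusted p = 3.73e-08). In all 10, which this rule picked for large changes of 1 sign, the lowest repeat library was above the highest single library (18% of all tested genes).

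The largest falls by the same rule were those of *Kirrel*, *Dtx1*, *5830411N06Rik*, *Syt6*, *Vipr1*, *Sept8*, *Gm30948*, *Bace1*, *Cd163l1* and *Tdrp*. *Dtx1*, a Notch-regulated ubiquitin ligase, had 46.1, 15.9, 30.2, 20.6 and 25.0 counts in repeat cells and 1038, 1767, 1523 and 1988 in single cells with ibrutinib, and 6.98, 6.91, 3.74 and 8.54 in the repeat libraries of the solvent arm. The log2 fold change was -5.86 ± 0.28, adjusted p = 6.98e-11 against -8.04, and the difference (2.17, adjusted p = 0.0233) was lost without repeat DMSO library C (adjusted p = 0.0871). *Kirrel*, an adhesion molecule, had 23.0, 21.6, 3.36, 5.02 and 0 against 890.3, 996, 492 and 722 counts, and 0, 0, 0.749 and 0 in repeat cells with DMSO, a difference that was called with the block (5.00, adjusted p = 0.00188) and by DESeq2 (adjusted p = 0.0169). *Syt6* (-5.19 ± 0.39, adjusted p = 1.7e-08), *Vipr1*, a receptor for vasoactive intestinal peptide (-4.59 ± 0.36, adjusted p = 2.49e-08), and *Bace1*, a membrane protease (-3.72 ± 0.46, adjusted p = 3.95e-06), fell as well. In all 10, picked in the same way, every repeat library was below every single library (16.4% of all tested genes).

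In 14 genes that were higher and 1 that was lower, every library of the low arm had at most 3 counts. *Bace2*, a protease, had 832 counts in the repeat libraries and 0 in the single libraries, and with a floor of 3 counts per library it was at least 47.4-fold higher. For *Chl1*, an adhesion molecule of neurons, the ratio of summed counts was 285 (exact 95% counting interval 122 to 879), for *Sorcs1*, a sorting receptor, 539 (149 to 4460) and for *Penk*, the precursor of enkephalins, 282 (96.4 to 1370). *Penk* had 78.8, 64.8, 511, 245 and 51.2 counts in repeat cells, with C and D the highest. In the other direction *Pdlim4*, a cytoskeletal adaptor, was lower in repeat cells with a ratio of 652 (180 to 5390) between single and repeat libraries.

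Among genes with a called difference, the rise was smaller with ibrutinib for *Asph* (2.29 ± 0.26, adjusted p = 1.46e-06, against 4.01 with DMSO), a hydroxylase, and for *Gpd2*, the mitochondrial glycerol phosphate dehydrogenase. *Gpd2* had 1093, 1457, 1910, 1410 and 1133 counts in repeat and 612, 654, 403 and 519.7 in single cells with ibrutinib and 3936, 3117, 3864 and 3865 in repeat cells with DMSO (log2 fold change 1.36 ± 0.21, adjusted p = 3.93e-05 against 2.88, difference -1.52, adjusted p = 0.00808). *Pik3r2*, a regulatory subunit of PI3 kinase (0.35 ± 0.34, adjusted p = 0.424, against 2.45 with DMSO), and *Cask*, a scaffold kinase (-0.20 ± 0.27, adjusted p = 0.58, against 1.35), were lost. The differences of *Asph* (-1.72, adjusted p = 0.0157), *Pik3r2* (-2.10, adjusted p = 0.0364) and *Cask* (-1.54, adjusted p = 0.049) were lost in 1, 9 and 15 of the 18 fits without 1 library, with adjusted p up to 0.0512, 0.0898 and 0.115. With an offset for the effective length those of *Asph* (-1.15, adjusted p = 0.213) and *Cask* (-0.64, adjusted p = 0.839) were not called. The fall was smaller for *Nacc2*, a transcriptional repressor, which had 207, 234, 78.3, 141 and 246 counts in repeat cells with ibrutinib and 2.33, 38.5, 27.7 and 18.1 with DMSO (difference 2.87, adjusted p = 0.0087).

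Enlarged rises were seen for *Serpina3f*, *Irf8*, *Insrr* and *Map2* beside *Xcl1*. *Serpina3f*, a protease inhibitor in a cluster of near copies, had 1181, 883, 1401, 2572 and 593 counts in repeat and 73.0, 51.5, 111 and 61.6 in single cells with ibrutinib, and 427, 430.4, 635 and 1125 against 766, 421, 1206, 521 and 297 with DMSO. The single libraries with ibrutinib were the lowest of all 18, and the log2 fold change was 4.16 ± 0.50, adjusted p = 3.32e-06 against 0.03 (difference 4.13, adjusted p = 0.00203). *Irf8*, an interferon regulatory factor, had 1364, 1461, 2230, 2097 and 2141 against 78.7, 48.7, 91.8 and 59.6 counts with ibrutinib and 3348, 3177, 4018 and 4542 against 592, 262, 672, 398 and 700.4 with DMSO (difference 1.89, adjusted p = 0.0106). *Insrr* (2.20, adjusted p = 0.0126) and *Map2* (2.02, adjusted p = 0.0233) had smaller counts, and the difference of *Map2* was lost in 3 of the 18 fits without 1 library (adjusted p up to 0.0586). *Tmcc3* was the gene with an enlarged fall (-1.57 ± 0.25, adjusted p = 6.84e-05, against -0.06 with DMSO), and its difference was kept in only 4 of the 18 fits (adjusted p up to 0.102).

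Genes called with ibrutinib whose DMSO change was under 0.2 in size included, beside *Serpina3f*, *Insrr* and *Ccr2*, *Bcl3*, an atypical inhibitor of NF-kappa B, which had 719, 436, 608, 622 and 440.3 counts in repeat cells and 226, 287, 167 and 147 in single cells (1.45 ± 0.23, adjusted p = 6.31e-05), and *Neurl1b*, a ubiquitin ligase of the Notch pathway (1.61 ± 0.30, adjusted p = 0.000366). Their differences (1.41, adjusted p = 0.0328 and 1.79, adjusted p = 0.041) were lost in 12 and 11 of the 18 fits without 1 library (adjusted p up to 0.0793 and 0.1). Lower by the same rule were *Tmcc3*, *Acer2*, a ceramidase (-1.03 ± 0.22, adjusted p = 0.00104, difference with the block -1.19, adjusted p = 0.02), *Tent5a*, a poly(A) polymerase (-0.98 ± 0.26, adjusted p = 0.00489, difference with the block -1.01, adjusted p = 0.0489), *Dusp10*, a phosphatase of stress kinases (-0.81 ± 0.17, adjusted p = 0.000776), and *Trim2* (-0.75 ± 0.27, adjusted p = 0.0332), whose call was lost in 7 of the 18 fits (adjusted p up to 0.102). With an offset for the effective length the log2 fold change of *Trim2* was -0.013 (adjusted p = 0.983). The differences of *Dusp10* (-0.74, adjusted p = 0.162) and *Trim2* (-0.63, adjusted p = 0.599) were not called.

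**Figure D5:**
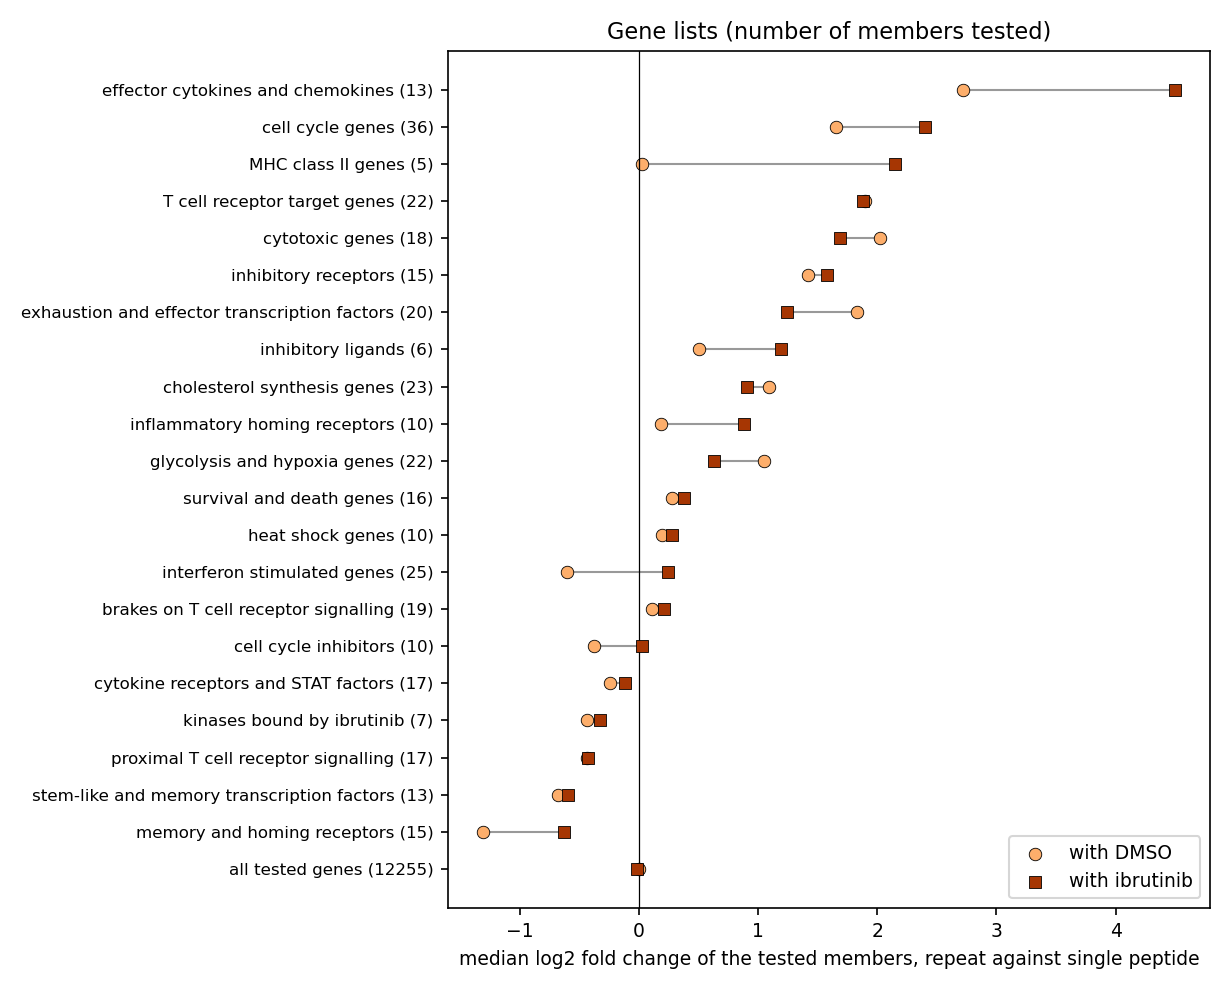
Median log2 fold change of repeat against single peptide cells for each gene list and for all tested genes, with DMSO and with ibrutinib. The lists of effector cytokines (4.5 with ibrutinib, 2.72 with DMSO) and cell cycle genes (2.4 and 1.65) had larger medians with ibrutinib, as had those of MHC class II genes (2.15 and 0.0286), inhibitory ligands (1.19 and 0.505) and inflammatory homing receptors (0.88 and 0.189). In the class II, ligand and homing receptor lists 0 differences were called as enlarged, and 1, 3 and 2 were called as reduced with the block. The class II medians, of 5 genes, are values of genes that were not called. The medians of interferon stimulated genes (0.245 and -0.602) and cell cycle inhibitors (0.0261 and -0.375) changed sign.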

How the data were processed

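RNA of CD8+ T cells was sequenced in 18 libraries, with 1 table deposited per library. Per the study's methods the authors trimmed paired-end reads (Trim Galore) and mapped them to GRCm38 with STAR inside RSEM, whose version per the submitters' notes was 1.3.1. The deposited expected counts are RSEM's estimated reads per gene, not normalized. The deposited TPM values, scaled by the authors' RSEM run per effective length, were used only for cell type markers, and the deposited effective length only as an alternative offset. TPM keeps no depth.

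Each table held 45706 genes, of which 45143 were matched to GENCODE M21 and 27903 were protein-coding or lncRNA. Expected counts were rounded and tested with edgeR 4.0.16 (TMM, filterByExpr, robust glmQLFit and glmQLFTest) in R 4.3.3, in 1 fit of 4 group means over 18 libraries, with Benjamini-Hochberg adjustment over 12255 genes. The fit was tested on simulated data. ± after a log2 fold change is its standard error. Repeat peptide minus single peptide is positive when higher in repeat peptide cells. Alternatives were DESeq2 1.42.0, other scalings, filters and thresholds, the experiment as a block, and each library left out. Counting intervals and floors cover counting error only. Figures used matplotlib 3.10.9.

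The genotype entries pair libraries. Deviations from the group means of the 24 same-experiment pairs from different groups correlated at 0.16 to 0.494 (median 0.325), and those of 97 other pairs at -0.44 to 0.404 (median -0.0765). No 2 libraries of a group agreed within sampling noise, with a chi-square per degree of freedom of 28.68 to 225.7. Repeat ibrutinib library E stood furthest from its group, with 225.7, 220.1, 147 and 136 against A to D. The other pairs of that group gave 33.05 to 132, and the highest value in the other groups was 149.4.

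Genes were named from 21 lists by function, by the 10 largest changes in each direction with a mean of at least 10 in both arms and the same sign in experiments A to D, by the 5 largest with at most 3 counts in each library of the low arm, by the 5 largest called differences of each kind, by the 5 largest calls whose DMSO change was under 0.2, and by opposite calls. The 6 genes *Gbp4*, *Id2*, *Ccl5*, *Klrd1*, *Mcl1* and *Il18r1*, and examples within lists, were chosen after their values were seen. Some members of the lists are not reported here by name. The members and lists were chosen with earlier results of these data known.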

Additional observations from a re-analysis of the deposited data

Results flagged for a closer look

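A library stood apart from the rest of its group in 17 of 362 sets of normalized counts examined (4.7%), and chance flags about 1 in 20 such groups. Among repeat peptide libraries with ibrutinib these were *Rgs16* in library A (997, others 1405 to 1543), *Sept8* in library E (1.19, others 16.7 to 27.3), *Tdrp* in library A (129.8, others 61.9 to 75.1), *Pdlim4* in library A (2.43, others 0), *Entpd1* in library B (526, others 264 to 311), *Itgb7* in library A (24360, others 16670 to 18340), *Lck* in library E (27890, others 21060 to 22710) and *Dusp10* in library E (171, others 287 to 339). Among single peptide libraries with ibrutinib they were *Sorcs1* in library C (1.85, others 0), *Btla* in library B (2747, others 1730 to 1857), *Nfatc1* in library D (5171, others 6202 to 6296), *Lef1* in library B (10830, others 8727 to 9005), *Itgb7* in library D (30450, others 33020 to 33260), *Tnfrsf9* in library C (284, others 122 to 138), *Gapdh* in library C (38830, others 31420 to 31720), *Gbp10* in library A (360.3, others 214 to 231) and *Gm4951* in library C (75.1, others 86.3 to 88.3). 

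The repeat peptide effect differed between ibrutinib and DMSO, by edgeR's quasi-likelihood test of the difference, for 50 named genes, each value below being the log2 effect with ibrutinib minus that with DMSO. It was larger with ibrutinib for *Xcl1* (3.74), *Ccl3* (4.79), *Ccl4* (3.16), *Insrr* (2.20), *Irf8* (1.89), *Serpina3f* (4.13), *Serpina3g* (1.88), *Bcl3* (1.41), *Tmcc3* (-1.50) and *Map2* (2.02). Rises with DMSO were smaller with ibrutinib for *Rbpj* (-0.94), *Icos* (-0.78), *Dusp5* (-1.15), *Prf1* (-1.91), *Pik3r2* (-2.10), *Asph* (-1.72), *Cask* (-1.54) and *Gpd2* (-1.52). Falls with DMSO were smaller, absent from the calls or not a fall with ibrutinib for *Dtx1* (2.17), *Tnfrsf14* (0.79), *Eomes* (2.56), *Klf3* (1.61), *S1pr1* (1.63), *Il6ra* (2.34), *Itgb7* (1.05), *Ly6c2* (2.41), *Txk* (1.43), *Il4ra* (0.96), *Gbp7* (1.15), *Igtp* (1.98), *Irgm1* (1.25), *Zbp1* (1.22), *Nacc2* (2.87), *Gm4951* (4.64) and *Gbp4* (1.56). *Neurl1b* (1.79) was called higher with ibrutinib and was not called with DMSO (-0.18). Calls were in opposite directions for *Cd274* (1.25), *Gbp2* (2.82), *Gbp3* (1.79), *Gbp5* (1.15), *Gbp6* (1.96), *Gbp10* (3.11), *Iigp1* (3.71), *Sp140* (0.83), *Slamf7* (1.67), *Wars* (1.11), *Fgl2* (2.96), *Prx* (1.78), *Gm49339* (1.77) and *Usp33* (-0.95). Of the 50 genes, 22 lost the call in at least 1 alternative and 28 in 0 of those run.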

How the results depend on the processing

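The counts of genes called with ibrutinib and with DMSO, the retained share and the separation on the first principal component kept their direction under the alternatives run. With an absolute log2 fold change above 1, 1461 genes were called with ibrutinib and 1994 with DMSO, and there were 1287 genes called with the same sign with DMSO and with ibrutinib, since fewer genes can pass. The difference of the effects was called for 341 genes by DESeq2 and for 679 with the replicate block, against 154, and the cause was not tested. The main fit left the pairing out, and 70.8% of the DMSO calls persisted in it, against 77.2% with the block. A gene that is lost or has no called difference in the main fit may therefore be called with the block. Leaving out 1 library gave 3763 to 4924 genes with ibrutinib, 5072 to 5995 with DMSO, 3422 to 4268 with the same sign and 84 (without repeat DMSO library C, and 89 without single ibrutinib library D) to 171 differences. It gave 153 to 160 called named genes and a retained share of 71.5% to 82.9%. The difference on the first component was -75.33 to -69.97. Its exact permutation test, which did not use the pairing, gave p = 0.0286 or 0.0179, the smallest possible at those sizes. The component came from the same libraries and was not computed again for these tests, so they are not independent support.

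For the ibrutinib fold changes of 181 named genes, 4597 of 4706 alternative values kept direction and call, 72 lost the call, 35 gained it and 2 turned direction without being called. These were *Btla* (-0.13 to 0.10 over the fits without 1 library, turning without single ibrutinib library B) and *Cask* (0.0029 with an offset for the effective length), and the cause was not tested. Without the filter on low counts the ibrutinib calls of *Cd96*, *Eomes*, *Nkg7*, *Bcl2*, *Panx1*, *Hspa1a* and *Trim2* were lost, and so were the called differences of *Cask*, *Eomes*, *Icos*, *Klf3*, *Pik3r2*, *Prf1*, *Serpina3g*, *Tmcc3*, *Tnfrsf14*, *Txk* and *Xcl1*. With the offset for the effective length the calls of *Nkg7*, *Panx1* and *Trim2* were lost, and so were the differences of *Asph*, *Cask*, *Neurl1b*, *Tmcc3*, *Tnfrsf14*, *Usp33* and *Zbp1*. The pairing by block changed no call of a named gene beyond those printed beside the gene. With 4 or 5 libraries a group, small changes can be missed. In simulated data, the changed genes had means above the threshold of 50 normalized counts. Of these, 2.99% were called at a log2 change of 0.35, 52.2% at 0.7 and 84.8% at 1.4. Far fewer genes were changed in that simulation than were called here, which makes the adjusted p-value stricter there. These shares therefore do not give the share of changes missed in the present comparisons. The median absolute log2 fold change of the lost genes with DMSO was 0.513. Experiment E holds only a repeat peptide library with ibrutinib, so its experiment and its group cannot be told apart.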
